A study of Mus musculus with 6 samples.

Results

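*ABCG2* and 9 genes that lie beside it in band q22 of chromosome 4 were followed in parental 22Rv1 cells and in their BL-B01D1–resistant subline, 10 genes of the 58735 in the deposited count table. They were picked by gene symbol (*SPP1*, *PKD2*, *ABCG2*, *PPM1K*, *HERC6*, *HERC5*, *PYURF*, *HERC3*, *NAP1L5* and *FAM13A*, in order along the chromosome). The choice was made with the difference between the 2 cell populations already known, so the values below describe these genes and no test is attached to that difference. From *SPP1* to *FAM13A*, a span of 1136 kb, the table lists 12 protein-coding genes. The 10 chosen genes are those with a count in any library, and the other 2 (*PIGY* and AC098582.1) had none.

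22Rv1 is a line of human prostate cancer cells. The drug, BL-B01D1, joins an antibody with binding arms for EGFR and for HER3 to a toxic payload of the camptothecin type, which blocks topoisomerase I. The parental group was 22Rv1 given vehicle and the resistant group was 1 subline derived from it under rising concentrations of BL-B01D1, with 3 RNA-Seq libraries in each. Neither the labels nor the methods say whether the libraries of a group came from separate cultures, so the spread between them may be technical and does not cover a repeated selection. Mouse is given as the organism in the sample labels, but the cell line and the gene identifiers are human.

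ABCG2 is an ATP-driven efflux pump of the plasma membrane. It is a half-transporter, which works as a dimer, and it is known for exporting camptothecin-type topoisomerase I inhibitors, other chemotherapeutic drugs and urate. The genes around it have unrelated jobs: a secreted phosphoprotein, a cation channel, a mitochondrial phosphatase, HECT-type ubiquitin ligases, a histone chaperone relative and others. Neighboring genes on a chromosome share DNA context but need not share regulation.

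Counts on genes totaled between 13821639 and 17251491 per library, so that 3 counts correspond to 0.174 to 0.216 CPM (counts scaled to library size, with TMM factors that correct for library composition). Markers of luminal prostate cells were present in all libraries. The 11 luminal markers summed to 3820 to 3901 CPM in parental and 4261 to 4346 CPM in resistant libraries. Of 7 stromal markers, 5 were tested by the test described below. At an FDR under 0.05, 2 were lower and 0 higher, beside 18.4% and 17.1% of all tested genes. The sum of the 7 went from 113 to 116 CPM to 40.7 to 45.8 CPM. *LUM*, a matrix proteoglycan gene, went from a mean of 96.0 to 28.8 CPM, whereas *COL1A2* had at most 2 counts in any library. Leukocyte markers summed to at most 2.501 CPM, with *CD3E* and *MS4A1* at 0 in all libraries. Neuroendocrine markers summed to 160 to 175 CPM in parental and 146 to 157 CPM in resistant libraries. At that FDR, 1 of 3 tested markers (*CHGB*) was higher and 1 (*CHGA*) lower. *CHGA* went from a mean of 39.4 to 8.18 CPM, whereas *CHGB* went from 24.2 to 37.9 CPM. The part of these marker differences in the results below was not tested. In RNA from bulk cells, more cells with a transcript and more transcript per cell cannot be told apart.

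*ABCG2* (ENSG00000118777, reverse strand, 88090264 to 88231322 on chromosome 4 of hg38) was the gene of the set with the lowest measured level among those tested in parental cells and the highest in resistant cells. Its counts were 82, 72 and 46 in parental cells and 7185, 6439 and 7194 in the resistant subline. Scaled, this was 4.76, 4.29 and 3.31 CPM against 433, 438 and 443 CPM. The groups lay 429 CPM apart at their nearest libraries. The fitted difference was a log2 fold change of 6.71, or 105-fold, and 0 of the 17142 genes tested had a higher one. With 1 library left out it ranged from 6.60 to 6.83. The coefficient of variation was 17.9% among parental and 1.13% among resistant libraries, which rest on 200 and 20818 counts in total.

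Per transcript length, *ABCG2* moved from the lowest of the 8 tested genes of the set to the highest of all 10. Its level was 0.817 ± 0.146 FPKM (SD, n = 3; FPKM is the level scaled to gene length and library size) in parental cells, where it stood at place 13966 among the 17142 tested genes. In resistant cells it was 86.9 ± 0.984 FPKM (SD, n = 3), at place 390. The share of tested genes with a lower FPKM went from 18.5% to 97.7%. *ABCG2* thereby passed *PYURF*, the gene of the set with the highest FPKM in parental cells.

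**Figure D1:**
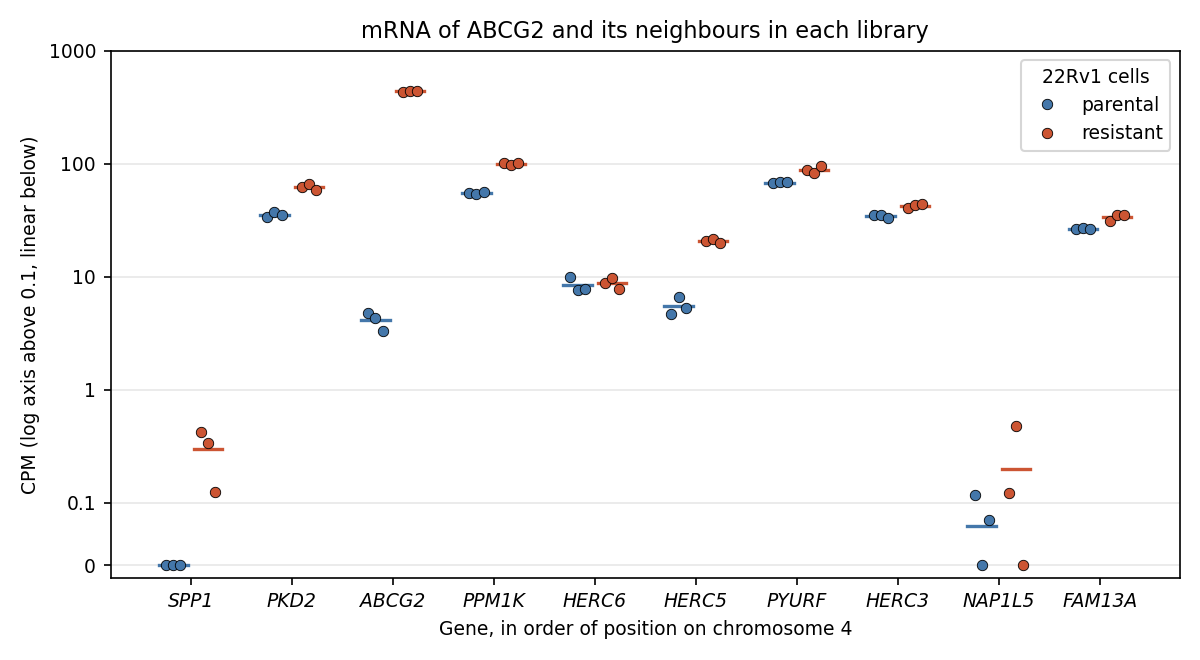
CPM of the 10 genes in each of the 3 parental and 3 resistant libraries (points) with the group mean (bars), on an axis that is logarithmic above 0.1 and linear below. The groups overlap for *HERC6* and *NAP1L5*, and the widest distance between groups is that of *ABCG2*.

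Of the 10 genes, 8 had enough counts to be tested by edgeR's quasi-likelihood test across all genes. A call required an FDR under 0.05 and a log2 fold change of over 1 in either direction. By that rule, 2 of the 8 were called higher (*ABCG2* and *HERC5*) and 0 lower, against 2.53% of all tested genes called higher and 2.84% called lower. By an FDR under 0.05 alone, 7 of the 8 were higher, 0 lower and 1 (*HERC6*) neither, against 17.1% of tested genes higher and 18.4% lower. The resistant libraries lay above all parental libraries for 7 of the 8 and under them for 0, as against 22.1% and 22.8% of tested genes. These counts follow from how the genes were picked. The median log2 fold change of the 8 genes was 0.60, and that of all tested genes was 0.0038.

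The genes that flank *ABCG2* on either side had nearly equal differences. *PPM1K* (ENSG00000163644, reverse strand, 88257620 to 88284769) encodes the mitochondrial phosphatase that activates the branched-chain ketoacid dehydrogenase, and its start site lies 53.4 kb from that of *ABCG2*. It measured 55.5, 53.5 and 55.6 CPM in parental libraries and 102, 96.5 and 102 CPM in resistant libraries. The resistant libraries were all higher, by at least 40.9 CPM, with a log2 fold change of 0.87 (SE 0.047), or 1.83-fold.

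*PKD2* (ENSG00000118762, forward strand, 88007668 to 88077777) encodes polycystin 2, a cation channel that is mutated in polycystic kidney disease. It measured 33.5, 37.1 and 34.8 CPM in parental libraries and 62.6, 66.3 and 58.2 CPM in resistant libraries. All resistant libraries were again higher, here by at least 21.1 CPM, with a log2 fold change of 0.83 (SE 0.061), or 1.77-fold. Both flanking genes were under the fold-change threshold for a call, and 3.80% of tested genes had a log2 fold change higher than that of *PKD2*.

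Beyond *PKD2*, *SPP1* (ENSG00000118785, forward strand, 87975650 to 87983426) encodes osteopontin, a secreted phosphoprotein of bone matrix that binds integrins and CD44. Its counts were 0 in all parental libraries and 7, 5 and 2 in resistant cells, so it did not enter the test. Against a floor of 3 counts over the parental group, its 14 counts in resistant cells gave a ratio of 4.71. The counting error of those 14 counts is not included, so the difference may be smaller. The level stayed low, at 0.127 ± 0.0665 FPKM (SD, n = 3) in resistant cells. The bone and dentin genes next to it (*IBSP*, *MEPE*, *DMP1* and *DSPP*) had at most 2 counts in any library.

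The *HERC* genes encode ubiquitin ligases with a HECT domain and, in this stretch, did not differ alike. *HERC5* (ENSG00000138646, forward strand, 88457117 to 88506163) is the main ligase that attaches the interferon-induced protein ISG15 to its targets. Its counts were 81, 111 and 73 in parental cells and 344, 314 and 323 in the subline, or 4.70, 6.61 and 5.26 CPM against 20.8, 21.3 and 19.9 CPM. The groups were 13.3 CPM apart, and the log2 fold change was 1.90 (SE 0.12), or 3.73-fold.

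*HERC6* (ENSG00000138642, forward strand, 88378739 to 88443111) is a close relative of *HERC5* and lies between it and *PPM1K*. It measured 9.98, 7.62 and 7.78 CPM in parental libraries and 8.81, 9.79 and 7.76 CPM in resistant libraries. The groups overlapped, and the log2 fold change was 0.05 (SE 0.13). Its sign turned on single libraries. It was −0.03 without parental library 2, −0.0056 without parental library 3 and −0.03 without resistant library 2, and reached 0.19 without parental library 1. The genes whose resistant libraries all lay above the parental ones were therefore not an unbroken run, since *HERC6* separates *PPM1K* from *HERC5*. With an SE of 0.13, however, a rise in *HERC6* as small as that of *HERC3* (0.30) might not have been seen.

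Per length, *HERC5* and *HERC6* changed places. In parental cells *HERC5* was at 1.16 ± 0.206 FPKM (SD, n = 3) and *HERC6* at 1.46 ± 0.227 FPKM (SD, n = 3), ranges that overlapped. In resistant cells *HERC5* was at 4.34 ± 0.152 FPKM (SD, n = 3) and *HERC6* at 1.52 ± 0.175 FPKM (SD, n = 3), ranges that did not.

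*HERC3* (ENSG00000138641, forward strand, 88592423 to 88708542) measured 35.0, 35.3 and 33.1 CPM in parental libraries and 40.7, 42.9 and 43.7 CPM in resistant libraries. The groups stood 5.41 CPM apart, with a log2 fold change of 0.30 (SE 0.064). *NAP1L5* (ENSG00000177432, reverse strand, 88695915 to 88697829), an imprinted relative of the nucleosome assembly proteins, lies inside *HERC3* on the opposite strand. Its counts were 2, 0 and 1 in parental cells and 2, 7 and 0 in resistant cells. The ratio of resistant to parental counts was 3.03 (exact 95% interval 0.755 to 17.4, counting error only), so no difference was detectable at this depth. Whether counting used strand is not given in the sources used here, so reads of *HERC3* and *NAP1L5* in that interval cannot be told apart.

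*PYURF* (ENSG00000145337, reverse strand, 88520985 to 88523813) encodes a small mitochondrial chaperone-like protein from the open reading frame upstream of *PIGY*, a gene of GPI anchor synthesis. It measured 67.0, 68.4 and 68.7 CPM in parental libraries and 87.3, 82.9 and 95.03 CPM in resistant libraries. The resistant libraries were all higher, by at least 14.1 CPM, with a log2 fold change of 0.38 (SE 0.049). *PIGY* shares 217 bases with it on the same strand and had 0 counts in every library, so how reads of the shared bases were assigned is uncertain.

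*FAM13A* (ENSG00000138640, reverse strand, 88725955 to 89111398) encodes a protein with a GTPase-activating domain and is known from lung function studies. It measured 26.6, 26.7 and 26.3 CPM in parental libraries and 31.1, 34.8 and 34.9 CPM in resistant libraries. The groups stood 4.33 CPM apart, with a log2 fold change of 0.34 (SE 0.072). Its antisense neighbor *FAM13A-AS1*, which overlaps it by 4149 bases, had between 44 and 79 counts in each library and a log2 fold change of 0.15 (SE 0.20, FDR 0.604 from edgeR's test).

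**Figure D2:**
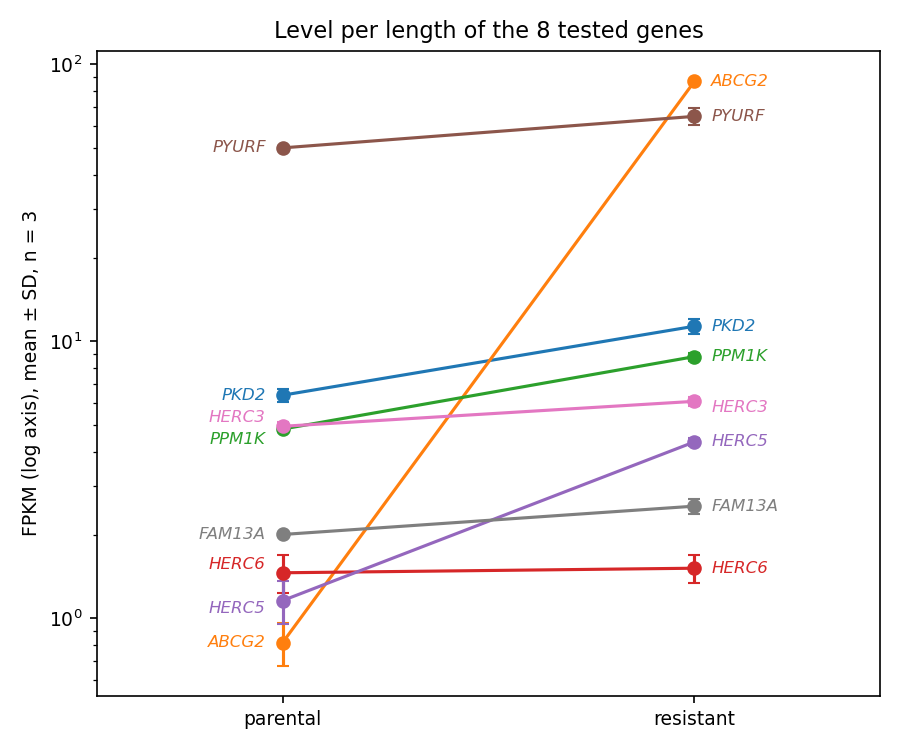
Mean FPKM (log axis, error bars SD, n = 3) of the 8 tested genes in parental and resistant cells, joined by lines. *ABCG2* goes from 0.817 to 86.9 FPKM and crosses all others, and *HERC5* crosses *HERC6* and *FAM13A*.

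In order of FPKM, the parental levels ran from *PYURF* (50.0) over *PKD2* (6.39), *HERC3* (4.94), *PPM1K* (4.82), *FAM13A* (2.01), *HERC6* (1.46), *HERC5* (1.16) and *ABCG2* (0.817) to *NAP1L5* (0.0327) and *SPP1* (0 in all libraries). Within this order *HERC3* and *PPM1K* overlapped between libraries, as did *HERC6* and *HERC5*, and *NAP1L5* and *SPP1*. In resistant cells the order was *ABCG2* (86.9), *PYURF* (65.0), *PKD2* (11.3), *PPM1K* (8.81), *HERC3* (6.08), *HERC5* (4.34), *FAM13A* (2.54), *HERC6* (1.52), *SPP1* (0.127) and *NAP1L5* (0.104). Here *SPP1* and *NAP1L5* were the only neighbors in the order whose libraries overlapped.

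Along the chromosome, the differences were read for all genes whose span lies within 2 Mb of *ABCG2*, of which 21 of 74 were tested. In that window 3 genes were called higher and 0 lower, beside the 2.53% and 2.84% of all tested genes. The median log2 fold change was 0.15, and it was 0.0975 without *ABCG2* and 0.0959 without parental library 3. The median was −0.0056 over the 605 tested genes of chromosome 4 and −0.0075 outside the window. Without the chosen genes, 13 tested genes remained, with a median of −0.02. At an FDR under 0.05, 2 of them were higher and 3 lower, beside 17.1% and 18.4% of all tested genes.

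Counts differed between the sides of *ABCG2*, with most of the chosen genes on one side. Among tested genes at lower coordinates than *ABCG2*, 2 of 9 were higher and 2 lower at that FDR, with a median log2 fold change of −0.02. Among those at higher coordinates, 6 of 11 were higher and 1 was lower, with a median of 0.30. Over all tested genes, 17.1% were higher and 18.4% lower at that FDR. Without the chosen genes, 1 of 8 was higher and 2 lower on the first side, and 1 of 5 was higher and 1 lower on the second. Grouped by distance between start sites alone, whether or not the whole gene lay in the window, the median was 0.34 for the 8 tested genes under 0.5 Mb from *ABCG2* and −0.03 for the 5 tested genes between 0.5 and 1 Mb, of which 6 and 1 are chosen genes. It was 0.04 for the 9 tested genes between 1 and 2 Mb and 0.02 for the 12 between 2 and 5 Mb.

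The tested genes that follow on either side of the stretch did not pass the FDR threshold until farther out. On the side of *PKD2*, the nearest tested genes farther out were the pseudogene *HSP90AB3P* (log2 fold change −0.36, SE 0.23, FDR 0.225 from edgeR's test), *NUDT9*, which encodes an ADP-ribose hydrolase (−0.02, FDR 0.891), and *HSD17B11*, a short-chain dehydrogenase gene (−0.03, FDR 0.629). On the side of *FAM13A*, they were *TIGD2*, a transposase-derived gene (−0.22, FDR 0.149), and *GPRIN3* (0.04, FDR 0.871), after which the next tested gene was AC097478.1, described below.

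**Figure D3:**
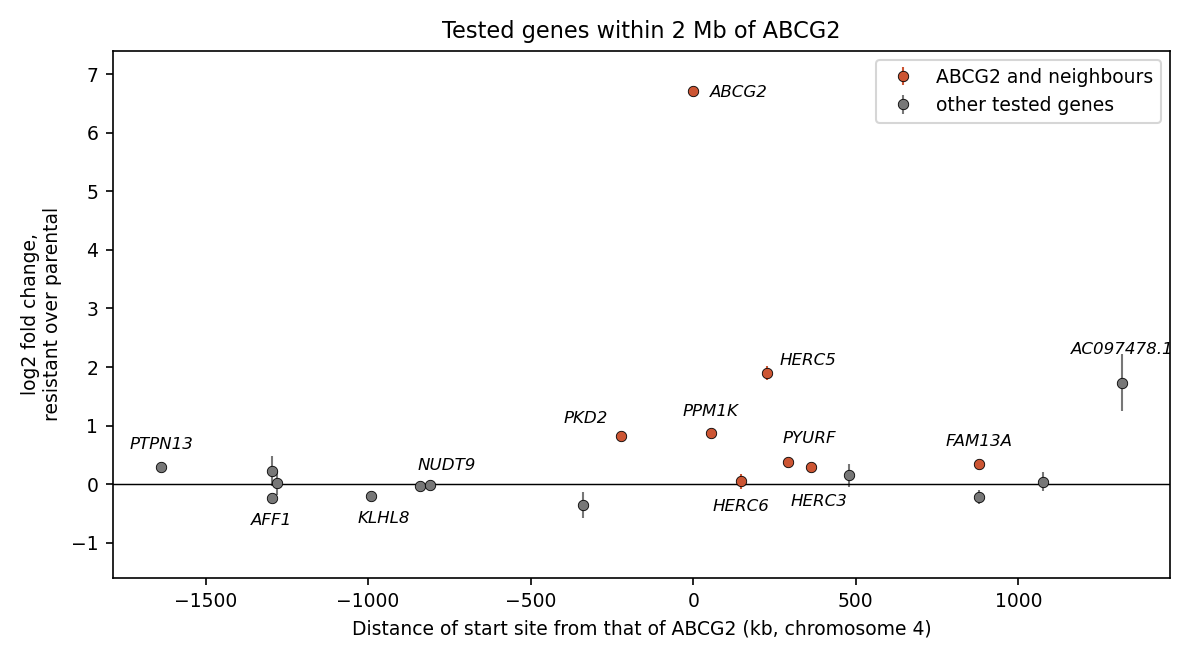
log2 fold change (resistant over parental, error bars SE) of the tested genes within 2 Mb of *ABCG2* (1 is left out) against the distance of their start site from that of *ABCG2* in kb. *ABCG2* stands at 6.71, the chosen neighbors lie between 0.05 and 1.90, and the nearest tested genes outside them lie close to 0 or under it. The error bar of *ABCG2* understates its spread.

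Further genes of the window that reached an FDR under 0.05 in edgeR's test lay farther away and on both sides of 0. *PTPN13*, a tyrosine phosphatase gene, had a log2 fold change of 0.29 (SE 0.047, FDR 4.64e-06). *AFF1*, which encodes an elongation factor scaffold, was at −0.23 (SE 0.045, FDR 5.26e-05) and *KLHL8*, a ubiquitin ligase adaptor gene, at −0.20 (SE 0.053, FDR 0.00217). The antisense gene AC097478.1 was called higher at 1.73 (SE 0.49, FDR 0.00426) on 4, 7 and 3 against 14, 11 and 22 counts. Since the strand setting is not given in the sources used here, reads from the opposite strand may be among them. That call was lost without resistant library 3. With at least 10 counts required in every library, AC097478.1 was not tested. In both settings 2 genes of the window were called higher.

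The summed levels differed for the chosen neighbors and overlapped narrowly for the rest of the window. As the neighbors were picked with the difference known, this contrast follows in part from the choice. The 9 neighbors together measured 233 ± 1.85 CPM (SD, n = 3) in parental and 357 ± 4.405 CPM (SD, n = 3) in resistant cells, with no overlap. The remaining genes of the window measured 374 ± 3.87 CPM (SD, n = 3) and 361 ± 9.83 CPM (SD, n = 3). The lowest parental sum was 369.7 CPM and the highest resistant sum 369.8 CPM. *ABCG2* took 0.548% to 0.778% of the window's CPM in parental libraries and 37.6% to 38.1% in resistant libraries.

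Profiles over the 6 libraries were compared with that of *ABCG2* by the Euclidean distance between log2 CPM values, each gene centered on its own mean. A gene with no difference between libraries would lie at a distance of 8.22. The tested genes nearest to *ABCG2* were *FREM1*, an extracellular matrix gene on chromosome 9 (distance 1.61), and *GNG2*, a G protein subunit gene on chromosome 14 (2.66). They were followed by the proteoglycan gene *SPOCK2* on chromosome 10 (3.41), *TRGC1*, a T cell receptor constant region on chromosome 7 (3.70), and the transcription factor gene *GATA3* on chromosome 10 (3.71). None of these 5 lies on chromosome 4. The distance takes in the size of the difference, so a gene with a smaller fold lies farther away whatever the shape of its profile. Of the neighbors, *HERC5* came nearest at 5.92, followed by *PPM1K* at 7.16 and *PKD2* at 7.21, whereas *HERC6* was at 8.15.

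Genes that work with each member were read from lists, with calls from edgeR's test over all genes. The counts in each list stand beside the 17.1% of all tested genes that were higher and the 18.4% that were lower at an FDR under 0.05, and nothing particular to a list is drawn from them. In the ABCG family, *ABCG1*, a cholesterol exporter, was the other gene tested and had a log2 fold change of 0.37 (SE 0.13, FDR 0.0208). *ABCG4*, *ABCG5* and *ABCG8* had at most 20 counts in any library and were not tested. Of 20 genes described as regulators of *ABCG2* transcription, 14 were tested and none was called, with a median log2 fold change of 0.01. At an FDR under 0.05, 1 was higher (*HIF1A*, the hypoxia factor, 0.27) and 2 were lower (*SP3*, −0.23, and *SP1*, −0.13, general promoter factors). The xenobiotic sensor *AHR* had a value of 0.19 (FDR 0.0940) and the oxidative stress factor *NFE2L2* a value of −0.02 (FDR 0.849).

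Around *PPM1K*, 14 other genes of branched-chain amino acid breakdown were tested, with 7 higher and 2 lower at an FDR under 0.05 and a median log2 fold change of 0.10. *BCKDHB*, a subunit of the enzyme complex that PPM1K activates, was at 0.44 (SE 0.057, FDR 3.38e-08), and *ACADSB*, a dehydrogenase later in the pathway, at 0.35 (SE 0.050, FDR 2.53e-07). *BCKDHA*, which encodes another subunit of that complex, had at most 3 counts in any library and was not tested. *MCCC1* was at 0.24 and *DLD* at 0.19, whereas *MCCC2* was lower at −0.11 (FDR 3.43e-04). The kinase *BCKDK*, which opposes PPM1K, had a value of 0.06 (FDR 0.372). The cytosolic transaminase *BCAT1* was the 1 gene called, lower at −2.001 (SE 0.16, FDR 8.86e-14), from 10.4 ± 0.453 CPM (SD, n = 3) to 2.60 ± 0.251 CPM (SD, n = 3).

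Around *HERC5*, genes of the ISG15 system were read next. Of 4 other tested genes of ISG15 conjugation, *ISG15* itself was higher at 0.16 (FDR 0.00867) and the deconjugating protease *USP18* lower at −0.19 (FDR 0.0290), and neither was called. *UBA7* and *UBE2L6*, which encode the activating and conjugating enzymes of ISG15, had at most 12 counts in any library. Of 30 interferon-response genes in the table, 15 were tested, with 4 higher, 2 lower, 0 called and a median of 0.08. The members with the largest differences were *PARP9* (0.96, FDR 1.19e-17), *MX1* (−0.89, FDR 2.39e-05), *PARP14* (0.76, FDR 3.77e-19) and *STAT2* (0.33, FDR 2.55e-04). Outside the stretch, *HERC4* was at 0.25 (FDR 0.00117), whereas *HERC1* (0.04, FDR 0.551) and *HERC2* (−0.04, FDR 0.433) did not reach the threshold.

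Around the remaining members, single genes were called. *CD44*, a receptor of osteopontin, was called lower at −1.10 (SE 0.064, FDR 5.73e-18), whereas the integrin gene *ITGAV* was higher at 0.40 (FDR 1.43e-11), *ITGB5* lower at −0.26 and *ITGB1* higher at 0.09. In all, 2 of 7 tested osteopontin receptor genes were higher and 2 lower, with a median of −0.12. Among 8 tested relatives of *NAP1L5*, 5 were higher and 1 lower, with a median of 0.17, and *NAP1L3* was called higher at 1.18 (SE 0.12, FDR 1.52e-10). *FAM13B*, a paralog of *FAM13A*, was at 0.32 (FDR 2.74e-04) and *FAM13C* at −0.17 (FDR 0.735).

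*PKD1*, which encodes the partner of polycystin 2, had a log2 fold change of 0.04 (SE 0.035, FDR 0.367), and *GANAB*, a glucosidase gene needed for maturation of the polycystins, was lower at −0.15 (FDR 5.55e-06). Of 3 tested partners of *PKD2*, 0 were higher and 1 was lower, with a median of 0.04. Among 12 other tested genes of the first step of GPI anchor synthesis and of PYURF partners, 2 were higher (*PIGQ*, 0.27, and *PIGH*, 0.25) and 4 lower, with *DPM2* at −0.29 and *COQ3* at −0.23, and the median was 0.04.

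**Figure D4:**
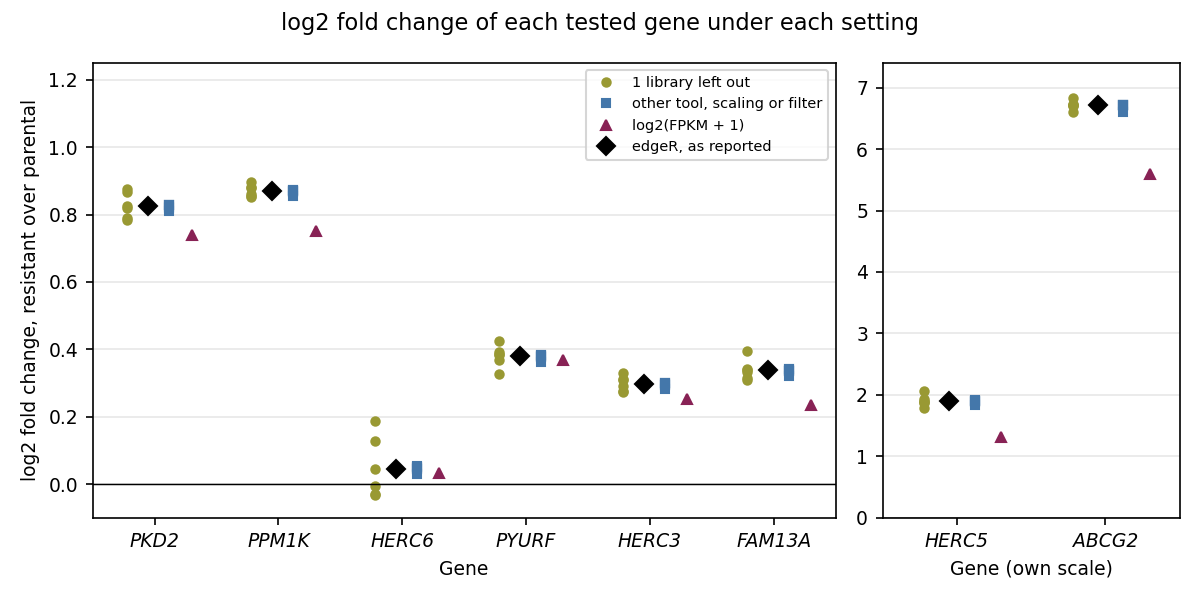
log2 fold change (resistant over parental) of the 8 tested genes as reported (diamonds), with 1 library left out (circles), with another tool, scaling, filter or prior count (squares) and as a difference of mean log2(FPKM + 1) (triangles), where *HERC5* and *ABCG2* have their own axis. *ABCG2* ranges from 5.60 to 6.83 and *HERC6* lies on both sides of 0.

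The log2 fold changes of the other 7 tested genes kept their sign in all settings tried. *HERC5* ranged from 1.31 with log2(FPKM + 1) to 2.06 without parental library 2, *PPM1K* from 0.75 to 0.90 and *PKD2* from 0.74 to 0.87. *PYURF* ranged from 0.33 to 0.42, *FAM13A* from 0.23 to 0.39 and *HERC3* from 0.25 to 0.33. *ABCG2* and *HERC5* were called in each of the 12 other fits across all genes that changed the tool, the scaling, the filter, the block or the libraries. Without a filter on low counts *SPP1* was called as well, on its 14 counts in resistant cells.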

How the data were processed

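RNA-Seq was analysed for 3 parental and 3 resistant libraries, grouped by the sample labels. The authors purified mRNA with oligo-dT, trimmed reads with fastp, mapped them to hg38 with HISAT2 (2.0.5), counted them per gene with featureCounts (1.5.0-p3) and deposited raw counts without normalization. The annotation release and the strand setting are not given in the sources used here. Gene length in bases is another quantity listed by the authors and was used for FPKM. Unused columns of per-sample values numbered 0.

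From the counts, genes were filtered with filterByExpr, scaled with TMM and tested by the quasi-likelihood method of edgeR (version 4.0.16, under R 4.3.3). P-values were adjusted after Benjamini and Hochberg over 17142 genes. The study's methods name limma, which was an alternative (limma-voom, 3.58.1), as was DESeq2 (1.42.0). The SE is the log2 fold change divided by the square root of F. For *ABCG2*, with a very large difference and few parental counts, that value understates the error, so its range with 1 library left out is given instead. The scripts were tested on simulated data. The floor of 3 counts covers counting error of the parental group alone, and intervals cover counting error only.

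The genes and lists were chosen with earlier results of these data known. Named genes are the 10 members, tested genes within 2 Mb of *ABCG2* at an FDR under 0.05, the 5 nearest profiles, and list members that were called or had the largest differences. Others, such as the genes at the edges of the stretch, *AHR*, *NFE2L2*, *BCKDK*, *MCCC2*, *PKD1* and genes with few counts, were named after their values were seen. Of the genes this rule names, 1 within 2 Mb is not reported here, though it counts in the totals. No human sequence was used.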

Additional observations from a re-analysis of the deposited data

How the results depend on the processing

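Of 208 values recomputed under the alternatives, 195 stayed within the spread allowed (1 SD between replicates, or 1.5 times for a count), 13 moved and 0 reversed. The cause of each change was not tested. All tested genes gave 434 called higher and 487 lower, which became 248 and 287 when 10 counts were required of every library. With each library left out in turn they ranged from 415 to 450 and from 471 to 493. The number of members called higher was 2 in all settings but 1, with 3 when no filter was used. The log2 fold change of *ABCG2*, 6.71, was 5.60 on log2(FPKM + 1), a scale that understates changes from low values, and ranged from 6.60 to 6.83 with 1 library left out. The median log2 fold change within 2 Mb of *ABCG2* was 0.15. It was 0.10 when 10 counts were required of every library, 0.26 without a filter, 0.22 within 1 Mb, 0.0470 within 5 Mb and 0.0975 without *ABCG2* itself, and ranged from 0.0959 to 0.15 with 1 library left out, lowest without parental library 3.

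Both groups carry replicate numbers 1 to 3. Deviations of same-numbered libraries from their group means had correlations of −0.00806, −0.0196 and −0.0157, so the numbers were not taken to pair the libraries. A fit blocked on the replicate number called 418 genes higher and 471 lower, 2 members were called higher, and the window median was 0.17. Depth limits *SPP1* and *NAP1L5*, whose levels rest on at most 14 counts in a group.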
